A study of Homo sapiens with 6 samples.

Results

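The 9 genes described here encode fibrillins and glycoproteins of the extracellular matrix. They were taken from a list of symbols, FBN1, FBN2, FBLN1, EFEMP1, MFAP2, FN1, THBS1, TNC and SPARC, and all 9 were found by Entrez gene ID among the 28395 genes of the count table. RNA-seq counts were compared between MDA-MB-468-PR, a paclitaxel-resistant derivative with 3 libraries, and its parent MDA-MB-468, an established human cell line from a triple-negative breast cancer, with 3 control libraries. The derivative had been kept in 3 to 4.5 nM paclitaxel, a microtubule-stabilising drug, for 2 months, and the cells of both groups carry the label untreated at harvest and grew in the same medium with 10% serum. All resistant libraries came from this 1 derivative, so an effect of the drug and other changes that arose in its making cannot be told apart. Replicate 1 of each line belongs to a 2020 batch and replicates 2 and 3 of each line to a 2021 batch.

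Fibrillins polymerise into microfibrils, thin extracellular filaments that carry elastin and hold latent TGF-beta close to cells. Fibulins and microfibril-associated proteins bind to these filaments. Fibronectin forms a separate fibrillar network that cells assemble through integrins, and thrombospondin-1, tenascin-C and SPARC are matricellular proteins, which modulate adhesion more than they build structure. In tumours these proteins are made both by fibroblasts and by carcinoma cells, and in a culture of 1 line the RNA comes from the carcinoma cells themselves.

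Total counts were 37889818 to 93680129 in the resistant libraries and 41343499 to 66475627 in the control libraries. Values are CPM (a library's counts on a common scale of total depth) scaled by the trimmed mean of M-values (TMM), and the limit set by a count of 0, taken as 3 counts, corresponds to 0.0312 to 0.0808 CPM over the 6 libraries. Libraries were enriched with exome probes, so a level depends in part on probe coverage. All 12 epithelial markers examined were measured in both lines, with a summed level of 12791 to 15735 CPM in resistant and 10505 to 12991 CPM in control libraries. EGFR, the most abundant of them, was the only one past the threshold, at 5964 ± 1229 CPM in resistant and 3775 ± 1256 CPM in control libraries (SD, n = 3 each; adjusted p = 0.0199, edgeR). Its call ended when control replicate 1 or 1 of the resistant libraries was left out (0.0625 to 0.0853). The EGFR groups overlap, with control replicate 1 at 5215 CPM above resistant replicate 2 at 5102 CPM. Of 12 fibroblast and stromal markers, LUM, THY1 and PDPN had no count in any library, DCN and COL3A1 averaged at most 0.0169 CPM in either line, and the list summed to 27.6 to 32.3 CPM in resistant and 29.3 to 36.2 CPM in control libraries, most of it from COL1A1 (24.6 ± 1.92 and 26.4 ± 3.66 CPM). Of the 5 markers of that list that could be tested, 1 passed the threshold, COL6A3, against 11.7% of all tested genes. COL6A3, chosen here after its values were seen, was lower in the resistant line, at 0.151 ± 0.0613 against 0.743 ± 0.368 CPM (adjusted p = 0.0142, and 0.087 without resistant replicate 3 or 0.0545 without control replicate 2). ACTA2 (0.769 resistant and 0.294 control CPM, edgeR adjusted p = 0.0769), PDGFRA (1.52 and 1.02, 0.531) and FAP (2.65 and 4.42, 0.051) were not called. None of 6 tested endothelial and blood cell markers passed. Their list summed to 27.7 to 84.9 CPM in resistant and 20.6 to 46.7 CPM in control libraries, led by the receptor KDR at 38.7 ± 25.5 and 16.6 ± 9.22 CPM. The part of these marker differences in the results was not tested.

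FBN1, FN1 and TNC were higher in the resistant line, and no gene of the list was lower by the test. These are 3 of the 7 genes with enough counts to test, or 42.9%, against 11.7% of all 13950 tested genes called in either direction, 6.23% called higher and 5.48% called lower. The genes were listed with earlier results of these data known, so this share is a description only. The test was edgeR's quasi-likelihood F test, fitted with a batch term, and a call is a p under 0.05 after Benjamini-Hochberg adjustment over all tested genes. A called difference of at least 2-fold was found for FBN1 and FN1, against 4.01% of all tested genes. The median log2 fold change over the 7 tested genes was 0.53, and that over all tested genes was -0.0039. FBN1 had the largest difference, FN1 the highest level, and FBLN1, EFEMP1, THBS1 and SPARC did not pass. FBN2 and MFAP2 were close to absent in both lines and were not tested. In bulk libraries, more cells with a given RNA and more of that RNA per cell cannot be told apart.

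**Figure D1:**
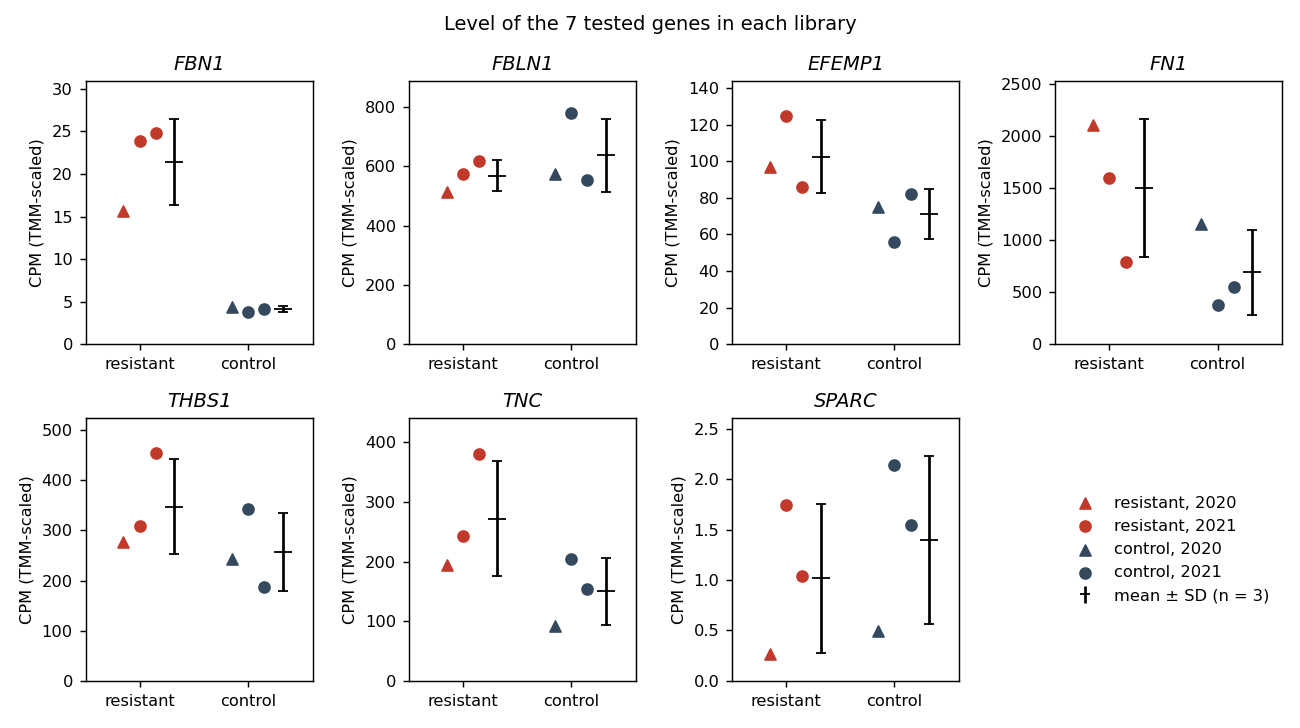
TMM-scaled CPM of the 7 tested genes in each resistant (left) and control (right) library, with triangles for the 2020 batch, circles for 2021 and bars for the mean ± SD of 3 libraries. FBN1 separates the lines widely, at 15.6 to 24.8 against 3.74 to 4.4 CPM, whereas the FN1 and TNC libraries of both lines overlap across batches.

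The promoter sequences of the 3 genes that rose are shown because these genes moved in the same direction from separate chromosomes. Each is the 250 bases before the transcription start in the RefSeq table of GRCh38.p14, on the minus strand, at chr15:48644971-48645220 for FBN1, chr2:215436069-215436318 for FN1 and chr9:115118158-115118407 for TNC. Capitals mark the matches, on either strand, to 6 motifs, which are the TATA box core TATAA, the GC box GGGCGG, the CCAAT box CCAAT, the AP-1 site TGANTCA, the TEAD site GGAATG and the cAMP response element TGACGTCA.
FBN1: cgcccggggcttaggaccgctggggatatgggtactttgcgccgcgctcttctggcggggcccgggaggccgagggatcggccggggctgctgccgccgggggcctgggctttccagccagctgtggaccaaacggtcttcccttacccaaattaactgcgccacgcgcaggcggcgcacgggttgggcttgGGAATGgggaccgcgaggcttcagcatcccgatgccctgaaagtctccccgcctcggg
FN1: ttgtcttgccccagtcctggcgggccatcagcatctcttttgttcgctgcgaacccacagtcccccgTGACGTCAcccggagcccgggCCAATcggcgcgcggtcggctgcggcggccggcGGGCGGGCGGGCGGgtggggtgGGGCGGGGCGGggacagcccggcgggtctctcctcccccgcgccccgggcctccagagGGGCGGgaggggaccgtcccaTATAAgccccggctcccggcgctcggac
TNC: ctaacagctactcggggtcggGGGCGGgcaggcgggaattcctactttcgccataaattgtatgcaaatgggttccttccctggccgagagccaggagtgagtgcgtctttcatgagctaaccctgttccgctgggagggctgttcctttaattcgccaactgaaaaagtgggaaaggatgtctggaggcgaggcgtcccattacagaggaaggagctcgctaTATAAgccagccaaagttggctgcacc
FN1 and TNC hold a TATA box core that begins 28 and 27 bases before the start, a motif found in 18.9% of 35116 such windows, and FBN1 has none. FN1 also has 6 GC box matches, some overlapping one another, a CCAAT box and a cAMP response element, which 42.6%, 32% and 1.65% of all windows hold. TNC has 1 GC box. FBN1 has 1 match, a TEAD site that begins 58 bases before the start, a motif held by 11.9% of windows. The 6 motifs were searched separately, none contains another, and no AP-1 site, held by 6.57% of windows, was found in these 3 windows. No motif was shared by all 3 windows. The FBN1 start used by the table lies 739 bases inside the outer boundary of the gene, so other starts of that gene are not covered. These are matches of letters and say nothing about binding. Windows were matched for 8 of the 9 genes, all but EFEMP1.

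FBN1 encodes fibrillin-1, the main structural protein of microfibrils (Entrez gene 2200, chromosome 15, 48408313 to 48645709, GRCh38). It was at 15.6, 23.8 and 24.8 CPM in resistant replicates 1 to 3, against 4.4, 3.74 and 4.16 CPM in control replicates 1 to 3. The lowest resistant library was more than 3 times as high as the highest control library, and control libraries varied little among themselves (SD 0.335 CPM). The fitted difference was 5.17-fold (log2 fold change 2.37 ± 0.18 SE, adjusted p = 0.000654), the 91st largest rise among the 13950 tested genes. Groups that do not overlap were found for 2 of the 7 tested genes, FBN1 and EFEMP1, or 28.6%, against 20.9% of all tested genes. FBN1 passed under all 15 alternatives computed, with log2 fold changes of 2.25 to 2.62, and its highest adjusted p was 0.0126 with 1 library left out. Of the 10 nearest tested genes around FBN1, 5 on each side, 1 was higher and 9 were not called. The higher gene was COXFA4L3 (log2 fold change 2.28, adjusted p = 0.00453, chosen after its values were seen). It is not adjacent, as it ends at 45433340 on chromosome 15, far before the FBN1 start at 48408313. Around FN1, 1 of the 10 nearest was lower (ABCA12, log2 fold change -0.64, adjusted p = 0.00316). Around TNC none of 10 was called by edgeR, and those genes lay between 114330504 and 120714470 on chromosome 9. Of all tested genes 11.7% were called, so these counts are near that share.

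The other fibrillin of the list, FBN2, which is best known from embryonic microfibrils, had no counts in resistant replicates 1 to 3, and 0, 2 and 0 counts in control replicates 1 to 3. FBN1 therefore made up 98.8% to 100% of the summed FBN1 and FBN2 level per length in each library. FBN3, another fibrillin gene, named here after its values were seen, was at 1.45, 6.59 and 2.2 CPM in resistant libraries and 1.09, 0.804 and 1.93 CPM in control libraries, groups that overlap (log2 fold change 1.3 ± 0.55 SE, adjusted p = 0.19). MFAP2, the microfibril-associated glycoprotein MAGP-1 that binds fibrillin, had 1, 10 and 11 counts in resistant replicates 1 to 3 and 0, 5 and 8 counts in control replicates 1 to 3. At 0 to 0.15 CPM these levels are close to the limit set by a count of 0, and no difference could be assessed. The rise of FBN1 RNA thus stood beside near-absent RNA of FBN2 and MFAP2 in these cells.

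Both fibulins of the list were abundant and neither passed the test. FBLN1, fibulin-1, a calcium-binding glycoprotein of basement membranes and elastic fibres, was at 513, 574 and 616 CPM in resistant libraries and 575, 778 and 555 CPM in control libraries. The groups overlapped, and the log2 fold change was -0.16 ± 0.15 SE (adjusted p = 0.515). FBLN1 had no call under any of the 15 alternatives, with log2 fold changes of -0.3 to -0.017. EFEMP1, fibulin-3, was at 97.1, 125 and 85.8 CPM in resistant libraries and 75.3, 56 and 82 CPM in control libraries. Every resistant library was above every control library, and the log2 fold change of 0.53 ± 0.19 SE missed the threshold (adjusted p = 0.115). The gene was called with DESeq2 (adjusted p = 0.0427) and without control replicate 3 (0.0422).

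FN1, fibronectin (Entrez gene 2335, chromosome 2, 215360865 to 215436068, GRCh38), ranked 65th by mean CPM among all genes of the table. It was at 2113, 1598 and 795 CPM in resistant replicates 1 to 3, against 1153, 373 and 555 CPM in control replicates 1 to 3. The control library of 2020 was above resistant replicate 3, so the groups overlap, yet within each batch every resistant library was above the control libraries. The fitted rise was 2.3-fold (log2 fold change 1.2 ± 0.29 SE, adjusted p = 0.0395). The call ended with the replicate number as a block (adjusted p = 0.0862), with no batch term (0.316) and with no filter (0.126). It also ended without control replicates 1, 2 or 3 (0.0901, 0.122 and 0.0817), without resistant replicate 1 (0.102) and in 2021 alone (0.0969). The fits without control replicate 1, without resistant replicate 1 and in 2021 alone are nearly 1 fit, since each loses the 2020 comparison. Their log2 fold changes were 1.35, 1.36 and 1.36. One end of FN1 overlaps ATIC, a purine synthesis gene with up to 23639 counts in a library, and whether counting used strand is not given in the sources used here. Reads may be shared there, and ATIC itself was not called (log2 fold change -0.12, adjusted p = 0.635).

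Among the matricellular genes, TNC rose and THBS1 and SPARC did not pass. TNC, tenascin-C, a hexameric glycoprotein of wound and tumour matrix (Entrez gene 3371, chromosome 9, 115019575 to 115118157, GRCh38), was at 194, 242 and 379 CPM in resistant replicates 1 to 3, against 92.7, 205 and 154 CPM in control replicates 1 to 3. The resistant library of 2020 was below the second control library, so the groups overlap, but resistant was higher within each batch. The fitted rise was 1.85-fold (log2 fold change 0.89 ± 0.19 SE, adjusted p = 0.0205). The call ended without resistant replicate 1, resistant replicate 3 or control replicate 1 (adjusted p = 0.103, 0.112 and 0.106). It also ended with no batch term (0.257) or in 2021 alone (0.102). For TNC too, the fits without either 2020 library and in 2021 alone are nearly 1 fit (log2 fold change 0.78 to 0.79).

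THBS1, thrombospondin-1, which binds CD36 and CD47 and can activate latent TGF-beta, was at 277, 308 and 454 CPM in resistant libraries and 243, 342 and 187 CPM in control libraries. The second control library exceeded 2 resistant libraries, and the log2 fold change of 0.42 ± 0.25 SE did not pass (adjusted p = 0.339, and 0.202 to 0.723 over the alternatives). SPARC, a collagen-binding glycoprotein also called osteonectin, was low in both lines, at 0.269, 1.74 and 1.04 CPM in resistant libraries and 0.497, 2.15 and 1.55 CPM in control libraries. These values correspond to 10, 116 and 100 counts in resistant libraries and 20, 120 and 105 counts in control libraries. Its log2 fold change of -0.51 ± 0.31 SE did not pass (adjusted p = 0.33), and the libraries of 2020 were the lowest of both groups.

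**Figure D2:**
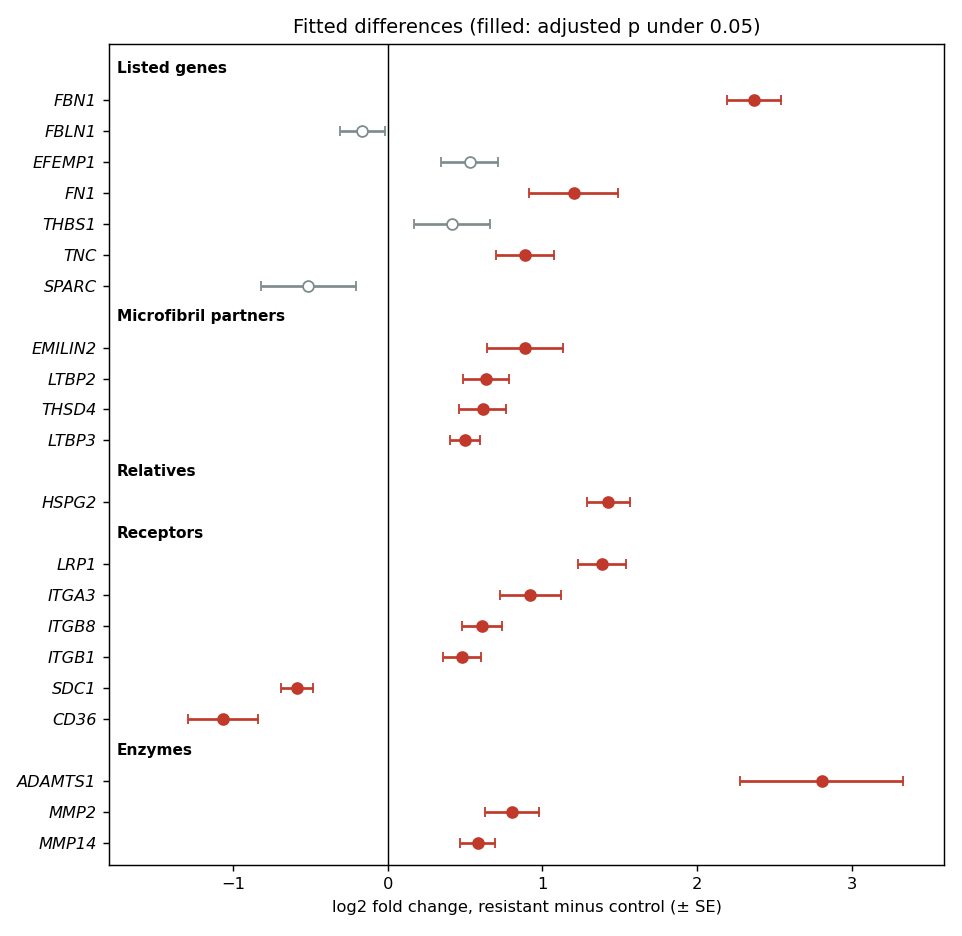
Fitted log2 fold change, resistant minus control, with its standard error, for the 7 tested listed genes and for the genes of the 4 related lists that passed at a mean of at least 1 CPM (6 libraries, batch as a term). Filled points have an adjusted p under 0.05, and FBN1 at 2.37 and ADAMTS1 at 2.81 lie farthest from 0.

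Levels of different genes were set side by side per kilobase of annotated exon. In the resistant line the order of means was FN1 (86.8 ± 38.4 CPM per kilobase), FBLN1 (77.9 ± 7.1), THBS1 (37.8 ± 10.3), TNC (28.2 ± 9.98), EFEMP1 (25.9 ± 5.1), FBN1 (1.33 ± 0.314) and SPARC (0.21 ± 0.152), each as mean ± SD of 3 libraries. FN1 and FBLN1 overlapped over libraries, as did THBS1, TNC and EFEMP1. FN1 in resistant replicate 3 (45.9) was also below THBS1 in the same library (49.6), so these genes overlapped too. By exon length, the steps from FBLN1 to THBS1, from EFEMP1 to FBN1 and from FBN1 to SPARC exceeded the spread. Per kilobase of coding sequence, however, EFEMP1 (69) stood above TNC (39.5) in the resistant line. FBN1 and SPARC (2.47 and 1.11 per coding kilobase) then overlapped over resistant libraries. In the control line the order was FBLN1 (87.3 ± 17), FN1 (40.1 ± 23.6), THBS1 (28.1 ± 8.54), EFEMP1 (17.9 ± 3.41), TNC (15.6 ± 5.82), SPARC (0.289 ± 0.173) and FBN1 (0.255 ± 0.0209). There FBLN1 stood above FN1 in all libraries, FN1 overlapped THBS1, THBS1 overlapped EFEMP1 and TNC, EFEMP1 overlapped TNC, and SPARC overlapped FBN1. Per coding kilobase the order of control means was the same, with SPARC at 1.53 and FBN1 at 0.472. FBN1 RNA, although it differed most between the lines, thus remained at a small fraction of the FN1 and FBLN1 levels in both.

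**Figure D3:**
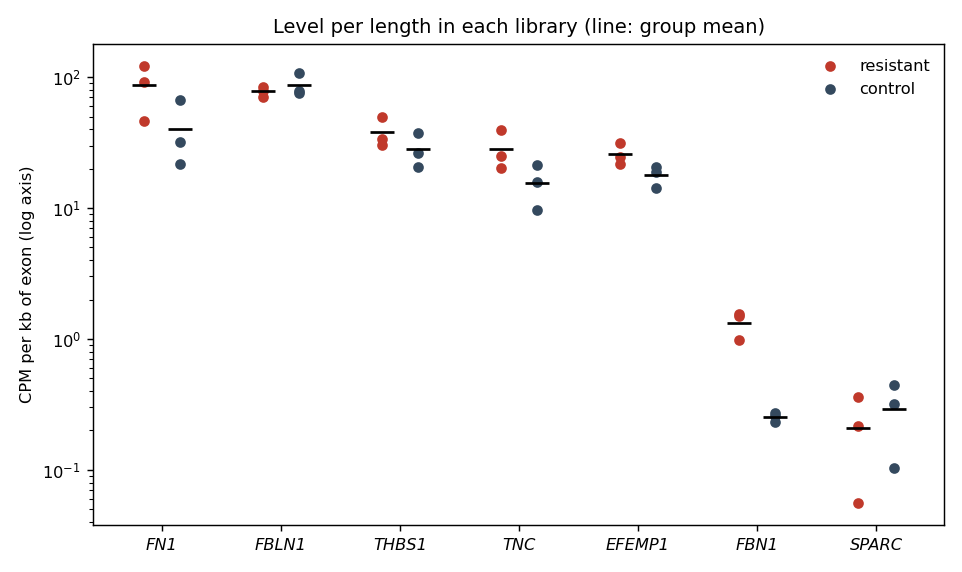
Level of the 7 tested genes per kilobase of exon (CPM per kb, log axis) in each resistant (left) and control (right) library, with the group mean as a line. FBN1 lies near SPARC in control libraries (0.255 and 0.289) and above it in resistant libraries (1.33 and 0.21).

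The batches moved several of these genes as far as the lines did. Between 2021 and 2020, 3 of the 7 tested genes differed, against 22.9% of all tested genes. FN1 was lower in 2021 (log2 difference -1.07, adjusted p = 0.0395, edgeR), and TNC and SPARC were higher in 2021 (0.81, adjusted p = 0.027, and 2.09, adjusted p = 0.00881). For FN1 and TNC these differences were about as large as those between the lines, and for SPARC larger. FBN1 differed by 0.26 between batches (adjusted p = 0.324).

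Within batches, the direction of each tested gene was the same in 2020, with 1 library per line, and in 2021, with 2 per line. The log2 difference in 2020 and 2021 was 1.83 and 2.62 for FBN1, 0.87 and 1.37 for FN1, and 1.07 and 0.8 for TNC. EFEMP1 had 0.37 and 0.61, THBS1 0.19 and 0.53, FBLN1 -0.17 and -0.16, and SPARC -0.88 and -0.42. Lines were separated in 1 direction within both batches for FBN1, EFEMP1, FN1 and TNC, that is for 4 of 7 genes, against 43.9% of all tested genes. A difference of the effect between batches was called for 0 of the 7 genes and 0% of all genes (edgeR interaction test, against 2 genes with DESeq2). At an unadjusted p under 0.05 it was found for FBN1 alone among the listed genes, with an edgeR adjusted p of 1, and for 187 of all genes.

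**Figure D4:**
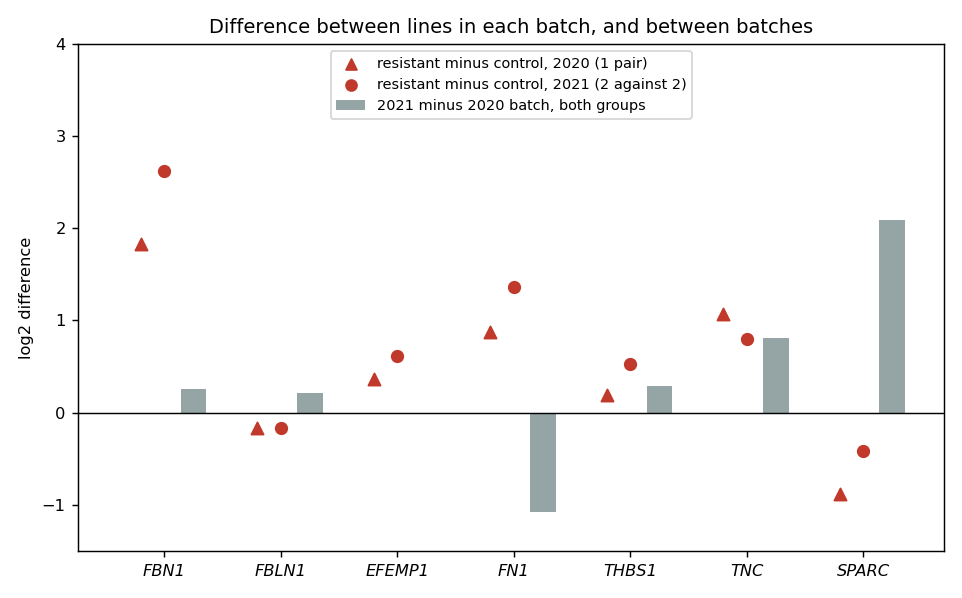
Log2 difference of resistant minus control within 2020 (triangles, 1 library per line) and within 2021 (circles, 2 per line), and the fitted log2 difference of 2021 minus 2020 (grey bars), for the 7 tested genes. For each gene both red points lie on the same side of 0, while the grey bar of SPARC, at 2.09, is longer than its line differences.

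Partners of microfibrils and elastic fibres were measured as a list of 31 genes. Of 23 tested, 7 were higher, 0 were lower and 16 did not pass, with a median log2 fold change of 0.5. Of all tested genes, 6.23% were called higher and 5.48% lower, and their median log2 fold change was -0.0039. LTBP2, a fibrillin-binding relative of the latent TGF-beta binding proteins, rose 1.55-fold to 9.06 ± 1.35 CPM in resistant libraries, against 5.86 ± 1.07 CPM in control libraries (adjusted p = 0.0256). EMILIN2, an elastin-associated glycoprotein, rose 1.85-fold to 2.62 ± 0.546 CPM, against 1.42 ± 0.434 CPM in control (adjusted p = 0.0497). THSD4, also known as ADAMTSL6, which in mouse promotes assembly of fibrillin-1 microfibrils, rose 1.53-fold to 26.7 ± 4.57 CPM, against 18.1 ± 7.28 CPM in control (adjusted p = 0.0342). Its groups overlap, with control replicate 1 at 26.2 CPM above resistant replicates 2 and 3 at 22.7 and 25.7 CPM. THSD4 was also lower in 2021 than in 2020 (log2 difference -0.65, adjusted p = 0.0225, edgeR), and with no batch term its adjusted p was 0.42. The other 4 were LTBP3, another latent TGF-beta binding protein, the low-level fibulins FBLN7 and EFEMP2, and the hemicentin HMCN1. They were chosen after their values were seen and rose 1.41-, 5.62-, 2.23- and 4.95-fold. The same families also held genes not called, named after their values were seen. LTBP1, at 199 and 212 CPM, and LTBP4 had log2 fold changes of -0.087 and 0.14. FBLN2 and FBLN5 (-0.99 and -0.49) were lower in every resistant library than in any control library. FBLN7 was at 0.421 ± 0.0533 CPM in resistant and 0.0756 ± 0.0229 CPM in control libraries and passed in all 14 alternatives computed for it. Its counts were 14, 32 and 39 in resistant libraries and 4, 3 and 5 in control libraries. The control counts lie near the limit of 3 counts, and the gene was kept for testing through its resistant libraries. The size of its rise is therefore uncertain.

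The other partner calls were less stable, and each ended with some library left out. Adjusted p reached 0.131 for LTBP2 and 0.0957 for LTBP3, which kept their calls only without control replicate 2 or 3. It reached 0.225 for EMILIN2, 0.164 for EFEMP2 and 0.163 for HMCN1, each called in 1 of 6 such fits (without control replicate 2 for EMILIN2 and without control replicate 3 for EFEMP2 and HMCN1). It reached 0.165 for THSD4, whose call ended without resistant replicate 2 or 3 or control replicate 2. The log2 fold change of HMCN1 was 2.31 as reported, 1.58 without resistant replicate 2 and 2.99 without control replicate 3. The HMCN1 groups overlap, with control replicate 3 at 0.339 CPM above resistant replicate 1 at 0.269 CPM. With the replicate number as a block EMILIN2 (adjusted p = 0.0827), THSD4 (0.0564), EFEMP2 (0.076) and HMCN1 (0.0971) did not pass.

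Among 34 matricellular and glycoprotein relatives, 16 could be tested and 1 was higher, with 0 lower, 15 not called and a median log2 fold change of 0.44. A single higher gene of 16 is close to the 6.23% called higher among all tested genes, so the count is at the background. The gene that rose was HSPG2, which encodes perlecan, a heparan sulfate proteoglycan of basement membranes. It was at 130, 202 and 252 CPM in resistant libraries, against 60, 80.7 and 71 CPM in control libraries, and every resistant library was above every control library (2.69-fold, log2 fold change 1.43 ± 0.14 SE, adjusted p = 0.00124). Like FBN1 it passed under all 15 alternatives, with adjusted p up to 0.03.

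Of 17 tested among 22 listed receptors for these proteins, 4 were higher, 2 were lower and 11 did not pass, with a median log2 fold change of 0.27. Among all tested genes 6.23% were higher and 5.48% lower, and the 2 lower receptors are too few to be set against that share. LRP1, an endocytic receptor that takes up thrombospondin-1, rose 2.61-fold to 85.1 ± 14.8 CPM, against 32.5 ± 4.62 CPM in control (adjusted p = 0.0022), and passed under all 15 alternatives. ITGA3, an integrin alpha subunit, rose 1.89-fold to 124 ± 2.87 CPM, against 65.7 ± 21.2 CPM in control (adjusted p = 0.0236). ITGB8, which with the alpha-V subunit activates latent TGF-beta, rose 1.53-fold (adjusted p = 0.0199). The fourth, ITGB1, the common beta-1 subunit, named after its values were seen, rose 1.4-fold (adjusted p = 0.0348). The ITGB1 groups overlap, with control replicate 1 at 386 CPM above resistant replicate 2 at 369 CPM. CD36, a receptor of thrombospondin-1, fell 2.09-fold to 1.47 ± 0.513 CPM in resistant libraries, against 3.05 ± 0.632 CPM in control libraries (adjusted p = 0.0181). SDC1, the proteoglycan syndecan-1, fell 1.5-fold to 201 ± 2.59 CPM, against 303 ± 15.2 CPM in control (adjusted p = 0.00832).

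With 1 library left out, ITGA3 was called only in the absence of control replicate 2 or 3 (adjusted p otherwise up to 0.123), the call of ITGB8 ended without resistant replicate 2 or 3 (up to 0.105) and that of ITGB1 without each of the 6 libraries (up to 0.141). CD36 did not pass in the absence of resistant replicate 1, resistant replicate 2 or control replicate 1 (up to 0.0787), and SDC1 without resistant replicate 3 (0.0501). Under the replicate block ITGB1 had an adjusted p of 0.057.

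Enzymes that process or cross-link this matrix gave 3 higher, 0 lower and 11 not called of 14 tested, with a median log2 fold change of 0.15, against 6.23% higher and 5.48% lower of all tested genes. ADAMTS1, a secreted metalloprotease, was at 4.9, 30.3 and 12.1 CPM in resistant libraries, against 1.02, 1.48 and 3.78 CPM in control libraries, and rose a fitted 6.99-fold (adjusted p = 0.0263). MMP2, a gelatinase that also cleaves fibronectin, rose 1.74-fold to 18.5 ± 1.16 CPM, against 10.7 ± 2.9 CPM in control (adjusted p = 0.0205). MMP14, the membrane protease that activates MMP2, rose 1.5-fold to 48.8 ± 7.45 CPM, against 32.5 ± 1.06 CPM in control (adjusted p = 0.0124). The log2 fold change of ADAMTS1 was 2.81 as reported and 2.22 without resistant replicate 2. ADAMTS1 did not pass under the replicate block (adjusted p = 0.0911), without resistant replicate 1 or without any control replicate (0.0549 to 0.197). MMP2 did not pass without control replicate 1 or resistant replicate 1 or 3 (up to 0.111), nor MMP14 without resistant replicate 2 or 3 (0.0645 and 0.0569).

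**Figure D5:**
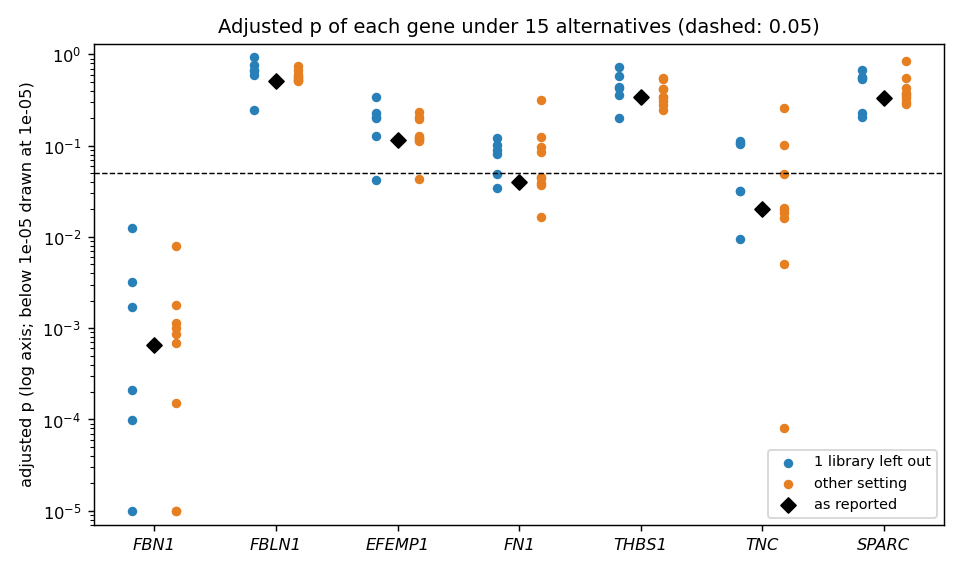
Adjusted p (log axis) of the 7 tested genes as reported (diamonds), with 1 library left out (left, 6 fits) and under the other settings (right, 9 fits), with the threshold of 0.05 dashed. All FBN1 points lie below the line, those of FN1 and TNC lie on both sides of it, and all points of FBLN1, THBS1 and SPARC lie above it.

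The genes whose log2 CPM followed the called members most closely over the 6 libraries, among 10516 others at a mean of at least 5 CPM, were a different set for each. For FBN1 they were CPT1C, DENND5A and ADGRL2, with a Pearson coefficient of 0.997, 0.994 and 0.994. All of these were themselves called higher in the resistant line (edgeR adjusted p = 0.00116, 0.0332 and 0.00105). For FN1 they were MRPS17, RRAGD and LRIG3 (0.997, 0.996 and 0.992), none of which was called between the lines. For TNC they were NFATC2, ABCA3 and COL26A1 (0.992, 0.99 and 0.983), of which only ABCA3 was called, as higher (edgeR adjusted p = 0.0312). The 6 libraries share 2 lines and 2 batches, and with so many genes compared, high coefficients are a description of these libraries only.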

How the data were processed

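Whole-number counts per Entrez gene were deposited by the authors without normalisation, with 1 column per library, assigned to samples through the library names that the labels give. Per the labels' protocols, the KAPA RNA HyperPrep kit was used on 100 ng of total RNA, followed by capture with Twist exome probes. Trimmomatic 0.38, STAR 2.7.8a, featureCounts of Subread and the build GRCh38 are named, per the submitters' processing notes. For the strand setting and reads with several matches, the sources used here give no setting. Symbols and positions came from the RefSeq table of GRCh38.p14, which matched 27745 of 28395 IDs, exon lengths from GENCODE 29.

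Genes were kept with filterByExpr, which left 13950, scaled by TMM and tested with edgeR 4.0.16 in R 4.3.3, with the batch as a term and 3 residual degrees of freedom. The script was tested on simulated data without a batch effect, so that test does not cover differences between batches. Standard errors come from the F statistic, and log2 CPM uses a prior count of 2. Counting limits cover counting error only, since captured fragments are not independent molecules. Whether replicates were separate cultures is not labelled, and p-values therefore cover only library-to-library spread, possibly technical. Each pair of libraries within a line differed beyond sampling noise, with a chi-square of 70 to 215 times its degrees of freedom. The genes and lists were chosen with earlier results of these data known. The text names all 9 genes and up to 3 risen and 3 fallen genes of each related list with a mean of 1 CPM or more. It also names the most abundant gene of each marker list and the 3 genes most like each called member. Further genes were named after their values were seen, and some of them, such as LUM, DCN, ABCA12 and TGFBI, carry no such remark.

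Deviations of same-numbered libraries of the lines from their group means correlated across genes at 0.729, 0.143 and 0.155. The numbers were used as pairs in a blocked fit, as an alternative only. The first pair is the 2020 batch, and within 2021 the crossed numbers correlated more, at 0.57 and 0.477. Pairing by number within 2021 is therefore not borne out by these correlations. Alternatives were other scalings, other filters, DESeq2 1.42.0, limma voom 3.58.1, no batch term, the replicate block, 2021 alone and each library left out. The 2020 batch holds 1 library per line, so leaving out either one leaves the other to the batch term. Those fits and 2021 alone are counted separately for every gene, although they are nearly 1 fit. Protein sequences were not used here.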

Additional observations from a re-analysis of the deposited data

How the results depend on the processing

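The direction of each of the 7 tested genes was the same in all 15 alternatives, and no called list gene reversed. Without the batch term 362 genes were called (197 higher, 165 lower), among them 1 of the 9 listed genes and 3 higher and 1 lower of the related lists, against 1633 (869 and 764), 3, 15 and 2 as reported. In 2021 alone these were 1012 (564 and 448), 1, 7 and 1. With no filter 5 genes of the related lists were lower, and FN1 had an adjusted p of 0.126. With 1 library left out, 617 to 1985 genes were called, 338 to 986 higher and 279 to 999 lower, with 1 to 3 of the listed genes higher and, in the related lists, 4 to 14 higher and 1 to 3 lower. The low end of the listed genes, FBN1 alone, was reached without control replicate 1 or resistant replicate 1, and 617 without resistant replicate 3. The total was 1001 in the absence of resistant replicate 1, 851 of resistant replicate 2 and 1064 of control replicate 1. With the replicate block, 1303 genes were called, 2 listed genes were higher (FBN1 and TNC), and 10 genes of the related lists were higher and 2 lower. Apart from the calls given above, it changed 1 of the listed and related genes, TGFBI, which passed (adjusted p = 0.0289, against 0.0525 as reported). Per coding length in place of exon length, 3 tested genes held the same rank in both lines, against 1. The cause of these changes was not tested. Single libraries were not tested as outliers in groups of 3. SPARC, FBN2, MFAP2 and FBLN7 are limited by counts.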
